A study of Mus musculus with 4 samples.

Results

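The genes described here encode the proteins of the splicing machinery and the heterogeneous nuclear ribonucleoproteins (hnRNPs). They were chosen by gene symbol alone, as rows whose symbol begins with Snrp, Sf3a, Sf3b, Prpf, Lsm, Srsf or Hnrnp and that held at least 40 counts over the 4 libraries. Of 35927 gene rows with counts, 76 had such a symbol and 73 were kept. The rows left out were Hnrnpa1l2-ps and Snrp1c-ps2, which carry a pseudogene mark, and Srsf12, which had 0 counts in every library. All 73 genes passed the filter on low counts and were tested among 13140 genes.

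The RNA came from erythroid progenitors sorted as CD71+ and TER119- from fetal livers of C57BL/6 mice at E13.5, the stage at which the liver makes red cells. The mutant libraries were made from Rcor1-/- embryos, which lack the CoREST scaffold protein that joins the demethylase Kdm1a to histone deacetylases. The control libraries mixed Rcor1+/+ and Rcor1+/- embryos. Each group had 2 libraries, every library pooled RNA from more than 1 liver, and the labels call them biological replicates. The share of each genotype in the control pools is not known from the labels.

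Splicing removes introns in ordered steps. The U1 snRNP binds the 5′ splice site and the U2 snRNP, with its SF3a and SF3b subcomplexes, the branch site; the U4/U6.U5 tri-snRNP then joins, and the Prp19 complex and a series of helicases bring the active site into shape. SR proteins mostly favour the use of the exons they bind, whereas many hnRNPs oppose it. In the red cell lineage, alternative splicing and intron retention change widely as progenitors mature, and Sf3b1, Srsf2, U2af1 and Zrsr2 are the mouse counterparts of the splicing genes most often mutated in human myelodysplastic syndromes.

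Rcor1 itself had 160 and 175 CPM (counts brought to a common library size with each library's total and TMM factor) in controls and 77.9 and 78.9 CPM in mutants. The groups did not overlap, and the fitted log2 fold change of mutant over control was -1.09 ± 0.06 (standard error; adjusted p = 4.6e-11, edgeR's quasi-likelihood test). The counts are per gene and do not show which exons the remaining reads cover. Library totals ran from 15053229 to 26892375 counts. The sort was on a surface phenotype, and the erythroid marker list (10 genes, among them Gata1, Klf1, Epor, Tfrc, Alas2 and Kit) went from 0.604% and 0.624% of control counts to 0.453% and 0.438% of mutant counts, with 9 of its 10 genes called lower. Marker lists of other cells were scarcer, and most had more genes called higher than lower. Granulocyte and monocyte genes went from 0.00482% and 0.00539% to 0.0113% and 0.011% of counts, with Ly6c1 at 0 in every library; 7 of 11 tested were called higher and Elane lower. Megakaryocyte genes went from 0.0115% and 0.0112% to 0.0327% and 0.0315%, with 7 of 9 higher and Vwf lower. Hepatoblast genes went from 0.0941% and 0.0938% to 0.14% in both mutants, and mesenchymal genes from 0.000796% and 0.000798% to 0.00284% and 0.00258%; 8 of 12 and 8 of 10 were higher and 0 lower. Macrophage genes took between 0.00198% and 0.00201% of counts in all 4 libraries, a steady sum of genes that moved in opposite directions: Marco (-2.97) and Cd5l (-1.83) were lower, Emr1 (0.54) was higher and 6 of 9 were not called. Endothelial genes went from 0.0155% and 0.0154% to 0.018% and 0.0177%. Most of that sum was Egfl7, which was not called (-0.10), while 4 of the 8 genes were higher: Tek (3.05), Pecam1 (2.15), Tie1 (1.53) and Kdr (1.22). The part of such shifts in the results below was not tested, and in these bulk pools fewer cells of a type and less RNA per cell cannot be told apart.

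Promoters are shown for genes picked from the SF3a and SF3b, SR and hnRNP classes with their changes known. They are the fallers Sf3a2, Sf3a1, Hnrnpa0 and Srsf9, the uncalled SF3b subunit Sf3b1, and the risers Srsf5 and Srsf3. Snrpg, Snrpa, Prpf19 and Lsm2, which fell furthest in the other classes, are not shown. Each line gives the 120 bases before the gene's annotated start, 5′ to 3′ on the gene's own strand, from RefSeq on GRCm38.p6. Capitals mark, on either strand, the TATA box TATAAA, the box known as CCAAT, the GC box GGGCGG and the ETS-type motif CCGGAAG; matches can overlap or touch, as they do in Srsf5.
Sf3a2 (chr10:80798615-80798734, plus strand): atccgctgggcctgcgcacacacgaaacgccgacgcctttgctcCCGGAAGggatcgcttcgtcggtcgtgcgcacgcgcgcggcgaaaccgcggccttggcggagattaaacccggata
Sf3a1 (chr11:4160234-4160353, plus strand): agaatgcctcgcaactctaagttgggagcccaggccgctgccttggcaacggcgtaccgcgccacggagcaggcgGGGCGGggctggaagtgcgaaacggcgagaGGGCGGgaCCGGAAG
Hnrnpa0 (chr13:58128557-58128676, minus strand): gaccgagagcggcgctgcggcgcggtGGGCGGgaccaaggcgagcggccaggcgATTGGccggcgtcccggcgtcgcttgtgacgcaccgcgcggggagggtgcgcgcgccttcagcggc
Srsf9 (chr5:115327057-115327176, plus strand): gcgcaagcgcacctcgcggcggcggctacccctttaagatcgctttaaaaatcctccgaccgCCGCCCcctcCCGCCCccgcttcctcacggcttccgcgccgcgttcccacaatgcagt
Sf3b1 (chr1:55027479-55027598, minus strand): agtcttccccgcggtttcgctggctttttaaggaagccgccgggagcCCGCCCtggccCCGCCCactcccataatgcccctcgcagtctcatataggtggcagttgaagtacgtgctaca
Srsf5 (chr12:80945379-80945498, plus strand): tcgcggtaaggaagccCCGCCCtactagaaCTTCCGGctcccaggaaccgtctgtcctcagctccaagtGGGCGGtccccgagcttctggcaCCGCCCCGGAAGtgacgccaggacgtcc
Srsf3 (chr17:29032540-29032659, plus strand): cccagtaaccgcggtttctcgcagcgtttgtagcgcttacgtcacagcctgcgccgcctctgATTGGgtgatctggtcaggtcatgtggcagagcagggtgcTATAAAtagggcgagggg
All 7 stretches are GC-rich, from 59.2% GC in Srsf3 to 79.2% in Hnrnpa0. Srsf3 was alone among them in carrying a TATAAA match, and Srsf3 and Hnrnpa0 each carried a CCAAT match. The ETS-type motif CCGGAAG stood in Sf3a2, Sf3a1 and Srsf5, so it was present beside both falling and rising genes.

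Over the wider RefSeq window of 300 bases, 250 before the start and 50 after it, 63 of the 73 genes had an entry. These genes had 85 windows, and a gene was counted if any of its windows held the motif. The genes set beside them are all 27025 with an entry, whether or not they were tested here. They were not matched for level, so the shares are no measure of an excess particular to splicing genes. CCGGAAG was found in 20 of the 63 (31.7%), against 9.93% of 27025 genes. The GC box GGGCGG was found in 44 of the 63 (69.8%, against 38.2%) and CCAAT in 34 (54.0%, against 41.1%). TATAAA was found in 7 genes (11.1%, against 15.7%), and the GATA-type motifs AGATAA and TGATAA in 5 (7.94%, against 12.7%) and 4 (6.35%, against 10.4%). The E-box CACGTG was found in 9 genes (14.3%, against 8.09%). Split by call, CCGGAAG was present in 13 of 35 genes called lower, 1 of 3 called higher and 6 of 25 not called. A match describes letters in a window, not binding, and all motifs were searched on both strands.

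Splicing and hnRNP genes were mostly lower in the Rcor1 mutant cells, and none changed as much as 2-fold. Of the 73 genes, 40 were called lower, 4 higher and 29 were not called. That is 54.8% lower and 5.48% higher, against 29.2% lower and 28.3% higher among all genes tested. The median log2 fold change was -0.18, against 0.01 for all genes. Fitted changes ran from -0.74 for Hnrnpa0 to 0.48 for Snrpc, which was not called. Over all genes 57.5% were called in either direction, so the sizes of changes are printed beside calls.

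**Figure D1:**
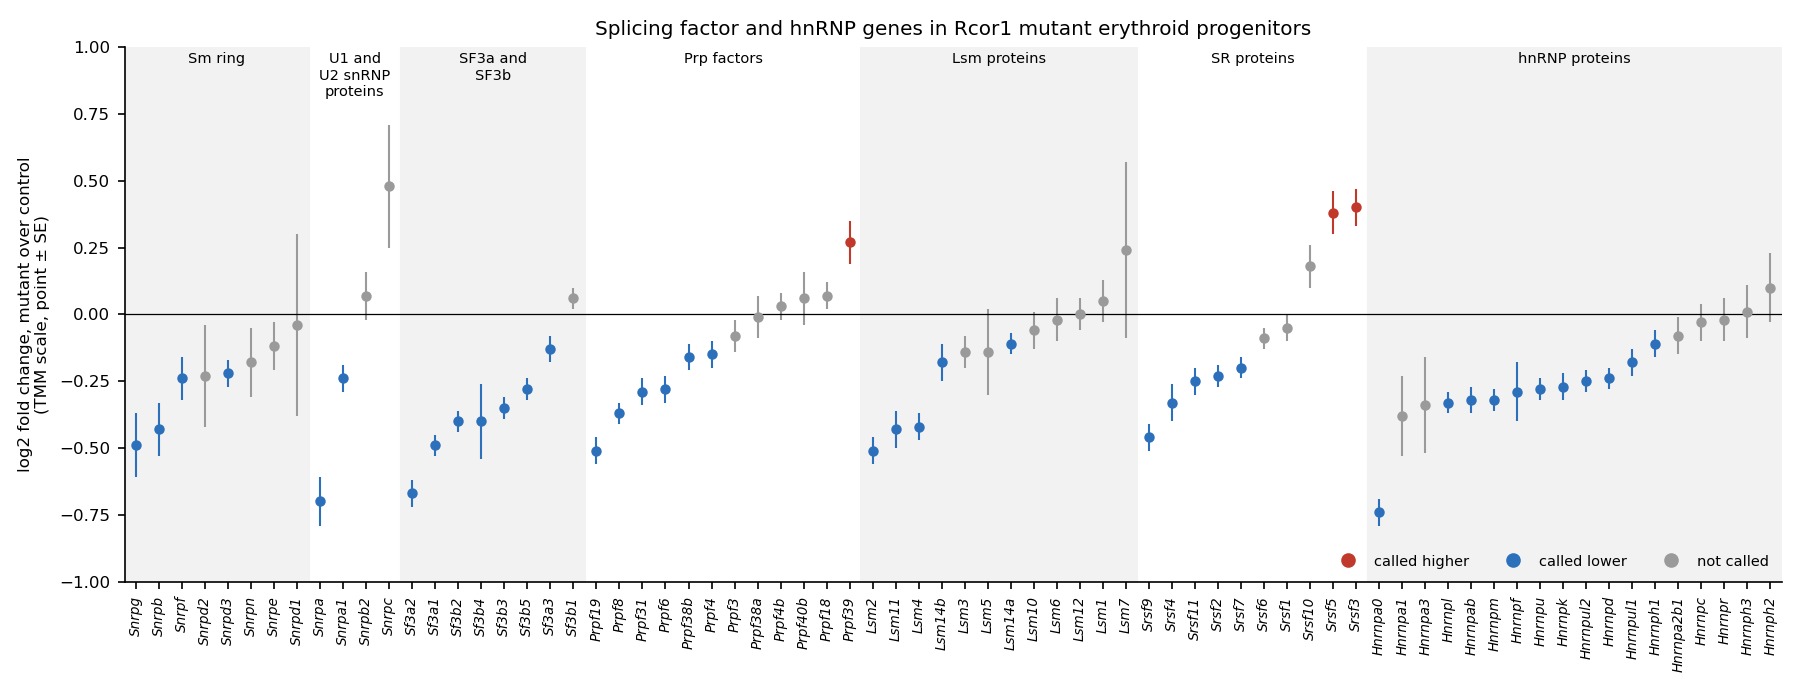
Log2 fold change of mutant over control on the TMM scale for 72 of the 73 genes, in 7 classes along the x axis and sorted within each class; points are edgeR estimates and lines ± 1 standard error. Blue points, the 40 genes called lower, fill every class, and the red points called higher are Prpf39, Srsf5 and Srsf3; under scaling by library totals alone 25 genes were called lower and 10 higher.

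Most of the changes were small. Against a threshold of 1.2-fold rather than 0, 13 genes were called lower and 1 higher, against 14.5% and 19.0% of all genes. Of the 40 falls, 21 were under 0.3 on the log2 scale and 5 were 0.5 or more. Those 5 were Hnrnpa0, Snrpa, Sf3a2, Lsm2 and Prpf19. Apart from the 1.2-fold threshold, 15 of the 40 falls lost their call under at least 1 alternative. For Srsf2, Srsf7, Snrpd3 and Snrpa1 that was library totals alone. The other 11, Snrpb, Snrpf, Sf3a3, Sf3b4, Prpf4, Prpf38b, Lsm14a, Lsm14b, Hnrnpf, Hnrnph1 and Hnrnpul1, each lost it in at least 1 fit that left out a library. No gene of the 73 was both called and changed by 2-fold or more, where 13.5% of all genes were. The libraries of the 2 groups did not overlap for 54 of the 73 genes, 46 of them lower and 8 higher in the mutants. Among all genes tested 77.9% did not overlap, 38.4% lower and 39.5% higher.

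The number of calls in each direction depended on how the libraries were put on 1 scale. Relative to TMM, scaling by library totals alone shifted the median of all genes from 0.01 to 0.15. Under it 25 of the 73 genes were called lower and 10 higher, with a median of -0.04, beside 19.4% of all genes called lower and 38.9% higher. With upper quartile scaling 30 were lower and 7 higher, beside 23.5% of all genes called lower and 33.7% higher. Under each of the 4 scalings run, including the RLE factors of DESeq2, the median of the 73 genes lay 0.19 below that of all genes, and 59 of the 73 lay below it. A change of scaling moves every gene by about the same amount, so these 2 values are fixed by construction and are no sign of stability. The 6 genes that were called higher with library totals but not with TMM were Snrpc, Srsf10, Snrpb2, Prpf18, Sf3b1 and Prpf4b. By the calls in the authors' deposited table, 20 of the 73 genes were lower and 8 higher. Of all its 13234 rows, 2338 were lower and 4983 higher. The median log2 fold change of the 73 genes there was -0.04, beside 0.15 for all rows. For 73 of the 73 genes the log2 fold change in the authors' deposited table was within 0.02 of the value fitted here with library totals alone.

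**Figure D2:**
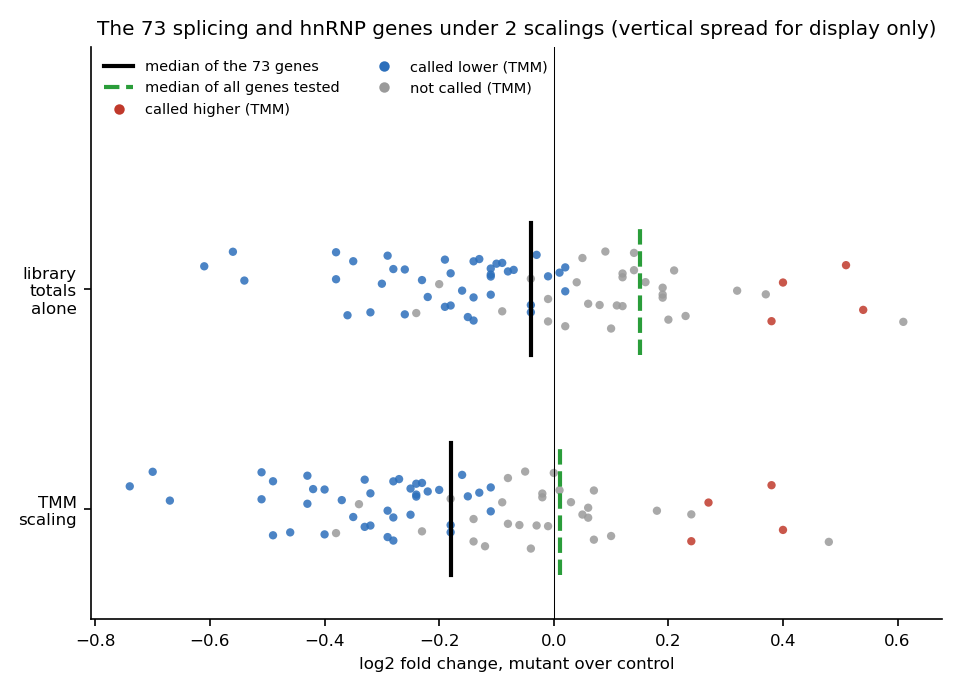
Log2 fold change of mutant over control for the 73 genes (x axis) with library totals alone and with TMM scaling; each point is a gene, coloured by its TMM call and spread vertically for display, and bars mark medians. The set shifts right with library totals, as the median of all genes does from 0.01 to 0.15, so the gap of 0.19 between the medians is the same in both rows by construction.

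Shares of each library's counts are values scaled by library totals alone, and in a sum of genes the abundant ones weigh most. Transcripts of the 73 genes made up 2.09% and 2.06% of the control libraries and 1.9% and 1.91% of the mutant libraries. Wilson 95% intervals, which cover counting error only, reached no further than 0.01 from each share. No mutant library reached either control. Shares were not tested, because the smallest exact two-sided permutation p for 2 libraries in each group is 0.33. The hnRNP class went from 0.857% and 0.828% to 0.748% and 0.755% of counts, a separation of the groups seen also for SF3a and SF3b, from 0.329% and 0.332% to 0.294% and 0.298%. SR genes made up 0.328% and 0.336% of the control libraries and 0.332% and 0.33% of the mutant libraries, so their groups overlapped.

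**Figure D3:**
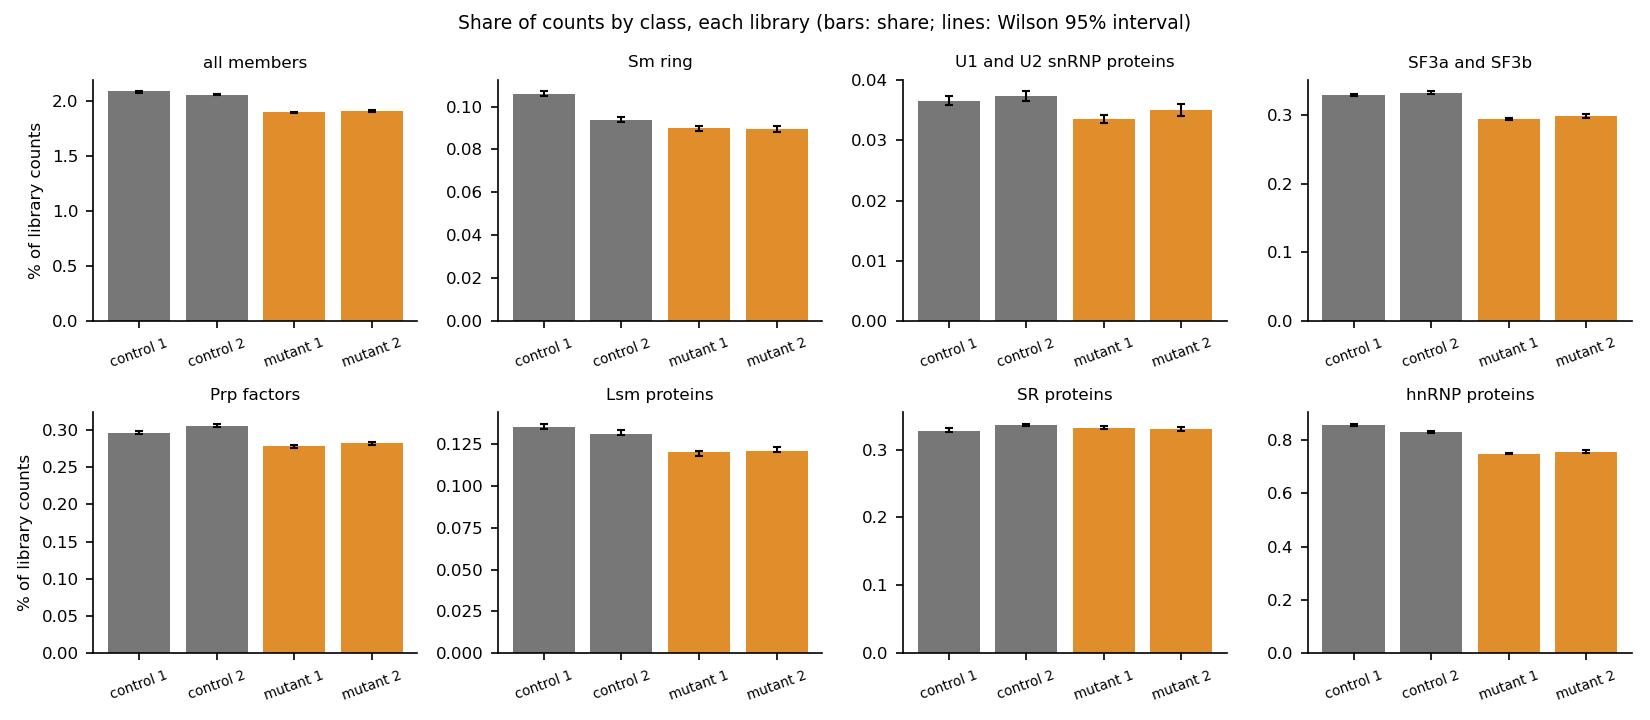
Share of library counts (y axis, %, from 0) taken by all 73 genes (the panel named all members) and by each class in the 2 control (grey) and 2 mutant (orange) libraries, with Wilson 95% intervals as lines. Mutant bars are below both control bars in every panel except SR proteins, where 0.332% and 0.33% lie between 0.328% and 0.336%.

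The Sm proteins form the ring that all spliceosomal snRNAs except U6 carry. Of 8 Sm genes, 4 were called lower and 0 higher, with a median of -0.22. With library totals alone 1 was lower (Snrpg) and the median was -0.09. Snrpb, which encodes SmB, had 490 and 400 CPM in controls and 337 and 323 CPM in mutants. All mutant values were lower than all control values, but the controls differed from each other by more than the mutants did. Its fitted change was -0.43 ± 0.10 (adjusted p = 0.0205), and over all alternatives its adjusted p ran from 2.82e-31 to 0.113. The call was lost with library totals (adjusted p = 0.0738) and when either mutant library was left out (0.0724 without the first and 0.113 without the other). Snrpd3 had 436 CPM in both controls and 356 and 394 CPM in mutants (-0.22 ± 0.05, adjusted p = 0.00108). Snrpg (-0.49) and Snrpf (-0.24) were the other genes called lower, at 20.3 and 31.8 CPM in controls. Snrpd1 was the least steady gene of the ring, with 92.9 and 59.7 CPM in controls and 83.0 and 65.2 CPM in mutants. Its change was -0.04 ± 0.34 from all libraries, 0.31 from the fit that left out control replicate 1 and -0.33 from the one that left out control replicate 2. Snrpn, the SmB paralog best known from neurons, was scarce, with 8.68 and 7.89 CPM in controls and 7.33 and 7.32 CPM in mutants. It was not called (adjusted p = 0.252), nor were Snrpe (-0.12) and Snrpd2 (-0.23).

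Among the 4 proteins particular to the U1 and U2 snRNPs, 2 were called lower and 0 higher. Their median was -0.08, which became 0.05 with library totals alone. Snrpa encodes the A protein of the U1 snRNP, which sits on a stem-loop of U1 RNA. It had 36.2 and 36.6 CPM in controls and 24.3 and 20.1 CPM in mutants. No overlap between groups was a condition for naming it, and its change was -0.70 ± 0.09 (adjusted p = 5.3e-06). Snrpa1, which encodes the A′ protein of the U2 snRNP, went from 320 and 323 CPM to 263 and 283 CPM (-0.24 ± 0.05, adjusted p = 0.00032). Its U2 partner Snrpb2 had 25.9 and 29.3 CPM in controls and 28.7 and 29.5 CPM in mutants and was not called. Snrpc, which encodes the C protein of the U1 snRNP, had the highest fitted change of all 73 genes at 0.48 ± 0.23 but only 2.19 and 1.6 CPM in controls and 2.49 and 2.93 CPM in mutants. It was not called (adjusted p = 0.0872), and it was called higher in the authors' deposited table (log2 fold change 0.61, adjusted p = 0.0131).

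The SF3a and SF3b subunits, which hold the U2 snRNP on the branch site, had the lowest median of the 7 classes at -0.38. Of 8 genes, 7 were called lower (87.5%) and 0 higher, beside 29.2% and 28.3% of all genes tested. With library totals 5 of the 8 were lower and 1 higher, beside 19.4% and 38.9% of all genes, and the median was -0.24. Sf3a2 had 183 and 168 CPM in controls and 110 CPM in both mutants. Groups without overlap were a condition for naming this gene, and the change was -0.67 ± 0.05 (adjusted p = 1.26e-08). Sf3a1 went from 367 and 373 CPM to 259 and 267 CPM (-0.49 ± 0.04, adjusted p = 4.76e-08). The third SF3a subunit, Sf3a3, fell by 0.13 on the log2 scale, and its value was 0.01 with library totals. The large SF3b subunits Sf3b2 and Sf3b3 moved closely together. Sf3b2 went from 863 and 856 CPM to 654 and 651 CPM (-0.40 ± 0.04), and Sf3b3 from 885 and 902 CPM to 690 and 708 CPM (-0.35 ± 0.04). Sf3b5 fell by 0.28. Sf3b4 fell by 0.40 from 12.5 ± 0.74 CPM (SD, n = 2), but 53.1% of its 36-base stretches occur in another annotated gene, and over the alternatives its adjusted p ran from 0.000578 to 0.219, the latter without mutant replicate 2.

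Sf3b1 was the exception in this class. It encodes the subunit that clamps the branch helix, and it had 564 and 602 CPM in controls and 597 and 616 CPM in mutants. The groups overlapped, and the change was 0.06 ± 0.04 (adjusted p = 0.29); with library totals it was 0.19 (adjusted p = 0.000869). The ratio of its counts to those of other subunits needs no scaling between libraries. Sf3b1 counts were 0.638 and 0.668 of Sf3b3 counts in controls and 0.866 and 0.871 in mutants. Against Sf3b2 the ratios were 0.654 and 0.703, then 0.913 and 0.947. Sf3a2 moved the other way, from 0.207 and 0.186 of Sf3b3 to 0.16 and 0.155. These pairs, and those below, were picked after the values were seen and have no test; they show unequal change and not which gene changed.

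The Prp factors act at several steps. Of 13 genes, 6 were called lower (46.2%) and 2 higher (15.4%), beside 29.2% and 28.3% of all genes tested. The median of the class was -0.08 and became 0.05 with library totals. With that scaling 4 of the 13 were lower and 4 higher, beside 19.4% and 38.9% of all genes. Prpf8, the scaffold around the active site, had 1156 and 1191 CPM in controls and 898 and 920 CPM in mutants. The fall was clear of the spread between replicates (-0.37 ± 0.04, adjusted p = 6.69e-07). Prpf19, the ubiquitin ligase that names the Prp19 complex, went from 394 and 372 CPM to 272 and 265 CPM (-0.51 ± 0.05, adjusted p = 4.88e-08). The tri-snRNP proteins Prpf31 (-0.29), Prpf6 (-0.28) and Prpf4 (-0.15) were also lower, as was Prpf38b (-0.16), while their partner Prpf3 was not called (-0.08). Among the risers, Prpf39, related to a yeast protein of the U1 snRNP, went from 34.1 and 37.5 CPM to 43.2 and 42.9 CPM (0.27 ± 0.08, adjusted p = 0.00773). No overlap between groups was a condition for naming Prpf39. Its call was lost without control replicate 1, where its change was 0.19, and its lowest adjusted p over the alternatives was 0.000168. The kinase gene Prpf4b (0.03), Prpf18 (0.07), Prpf38a (-0.01) and Prpf40b (0.06) were not called.

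Lsm proteins form rings related to the Sm ring. Of 12 genes, 5 were called lower (41.7%) and 0 higher, beside 29.2% and 28.3% of all genes tested. The median of the class was -0.13. With library totals 3 of the 12 were lower, beside 19.4% of all genes, and the median was 0.01. Lsm2 and Lsm4 belong to the ring on U6 RNA and to the cytoplasmic ring that promotes decapping. Lsm2 went from 233 and 222 CPM to 157 and 161 CPM (-0.51 ± 0.05, adjusted p = 8.65e-08). Lsm4, the class member with the highest level per length at 547 CPM per kb in controls, went from 526 and 485 CPM to 376 and 382 CPM (-0.42 ± 0.05). Both falls kept the groups well apart. The other genes of these rings had smaller fitted changes. Lsm3 (-0.14), Lsm5 (-0.14), Lsm6 (-0.02) and Lsm7 (0.24) were not called, nor was Lsm1 (0.05), the subunit found in the cytoplasmic ring. Over the alternatives Lsm5 ran from -0.38 to 0.13 and Lsm3 from -0.23 to -0.01. Lsm3 was called lower with genes of at least 1 count kept (adjusted p = 0.00995) and stayed uncalled under 8 alternatives. Lsm7 was the scarcest of the 73 genes, with 84 counts over all libraries. Lsm11, a protein of the U7 snRNP that processes histone mRNA ends, went from 55.8 and 56.8 CPM to 42.5 and 40.7 CPM (-0.43 ± 0.07, adjusted p = 6.14e-05). Its U7 partner Lsm10 was not called (-0.06). Of the Lsm14 proteins, which repress translation in P bodies, Lsm14b fell by 0.18 and Lsm14a by 0.11; the value of Lsm14a was 0.02 with library totals. Lsm12 was not called, with a change of 0.00.

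SR proteins split in both directions. Of 10 genes, 5 were called lower, 2 higher and 3 were not called, with a median of -0.15; with library totals 3 were lower, 3 higher and the median was -0.01. Srsf9 fell the furthest, from 180 and 187 CPM to 129 and 139 CPM (-0.46 ± 0.05, adjusted p = 9.64e-07). Srsf4 (-0.33), Srsf11 (-0.25), Srsf2 (-0.23) and Srsf7 (-0.20) were also lower. Srsf2, which encodes SC35 and had 430 CPM per kb in controls, the highest level per length in its class, went from 836 and 795 CPM to 695 and 698 CPM (adjusted p = 0.000185). Its call was lost with library totals (-0.09, adjusted p = 0.0625), and its lowest adjusted p over the alternatives was 5.84e-11. Srsf1, the founding SR protein, had 827 and 925 CPM in controls and 842 and 851 CPM in mutants. Both mutant values lay between the control values, and no change was called (-0.05 ± 0.05). Srsf6 (-0.09) and Srsf10 (0.18) were not called either, but both were called under some alternatives. Srsf10 was called higher with upper quartile scaling (adjusted p = 0.0113), with library totals (0.00235) and in the authors' deposited table (0.000634), and stayed uncalled under 6 alternatives. Srsf6 was called lower with genes of at least 1 count kept (adjusted p = 0.00863) and with the replicate block (0.0119). Its change was -0.13 without control replicate 2, and it stayed uncalled under 9 alternatives.

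The 2 risers of the class stood at like levels. Srsf3, the smallest SR protein, went from 46.6 and 50.4 CPM to 65.9 and 62.2 CPM (0.40 ± 0.07, adjusted p = 0.000136). Srsf5 went from 50.7 and 46.9 CPM to 60.3 and 66.8 CPM (0.38 ± 0.08, adjusted p = 0.000399). In both genes every mutant library was above every control library, and Srsf3 was the 1 gene of the 73 called higher against the 1.2-fold threshold. Srsf3 counts were 0.259 and 0.27 of Srsf9 counts in controls and 0.511 and 0.448 in mutants. Together Srsf3 and Srsf5 stood at 0.029 and 0.0285 of the counts of the other SR genes in controls and at 0.0416 and 0.0425 in mutants. Both share sequence with other annotated genes, over 35.9% and 29.3% of their 36-base stretches, so their levels are uncertain where such reads were dropped or split.

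The hnRNPs were the largest class by number and by counts. Of 18 genes, 11 were called lower (61.1%), 0 higher and 7 were not called, with a median of -0.26. The shares of all genes tested were 29.2% lower and 28.3% higher. With library totals 8 of the 18 were lower and 0 higher, beside 19.4% and 38.9% of all genes, and the median was -0.12. Hnrnpa0, a binder of AU-rich RNA, had the steepest fall of all 73 genes, from 951 and 863 CPM to 558 and 525 CPM. Its change was -0.74 ± 0.05 (adjusted p = 6.82e-09), and no overlap between groups was a condition for naming it. Hnrnpab, also an A/B-type protein and the hnRNP with the highest level per length at 668 CPM per kb in controls, went from 1661 and 1504 CPM to 1246 and 1290 CPM (-0.32 ± 0.05). Counts of Hnrnpa0 were 0.573 of those of Hnrnpab in both controls and 0.448 and 0.407 in mutants. Hnrnpu, the nuclear scaffold protein whose 144231 counts were the most of any gene here, went from 1745 and 1771 CPM to 1428 and 1476 CPM (-0.28 ± 0.04, adjusted p = 1.38e-05).

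Hnrnpl, which binds CA repeats, went from 961 and 944 CPM to 738 and 777 CPM (-0.33 ± 0.04, adjusted p = 3.61e-06). Hnrnpm went from 808 and 810 CPM to 629 and 669 CPM (-0.32 ± 0.04). Hnrnpk, which binds C-rich RNA, went from 209 and 225 CPM to 176 and 184 CPM (-0.27 ± 0.05, adjusted p = 0.000217). In none of these 3 genes did a mutant library reach a control library, which was a condition for naming Hnrnpm. Hnrnpf (-0.29), Hnrnpul2 (-0.25), Hnrnpd (-0.24), Hnrnpul1 (-0.18) and Hnrnph1 (-0.11) were the other falls; the value of Hnrnph1 was 0.02 with library totals. The call of Hnrnpf was lost with upper quartile scaling, with library totals (-0.15), with DESeq2 (adjusted p = 0.171) and in 3 of the 4 fits that left out a library. That of Hnrnpul1 was lost with upper quartile scaling, with library totals (-0.04) and without mutant replicate 2. Hnrnpa1, a repressor of exon use, had 131 and 129 CPM in controls but 87 and 115 CPM in mutants. The mutants disagreed by more than the controls, and it was not called (-0.38 ± 0.15, adjusted p = 0.104). Its change ran from -0.18 without mutant replicate 1 to -0.58 without mutant replicate 2. It was called lower in each fit that left out a library, where the reduced group's spread is taken from the other group. It was also called lower with genes of at least 1 count kept (adjusted p = 6.19e-08) and in the authors' deposited table (0.00562). The replicate block gave a call as well, but no label pairs the libraries, so that fit has no basis in the design. None of these calls removes the disagreement between the mutants. Hnrnpa3 was not called either (-0.34 ± 0.18), with 63.1 and 77.5 CPM in controls and 48.4 and 63.6 CPM in mutants. Its change ran from -0.53 to -0.14 over the alternatives. It was called lower in 3 of the 4 fits that left out a library, the exception being the one without mutant replicate 1 (-0.14). The filter at 1 count (adjusted p = 1.83e-05) and the authors' deposited table (0.0358) gave the same call. So did the replicate block, which has no basis in the labels. Hnrnpa2b1 had 839 and 748 CPM in controls and 795 and 708 CPM in mutants, so its groups overlapped (-0.08 ± 0.07). Hnrnpc (-0.03), Hnrnpr (-0.02), Hnrnph3 (0.01) and Hnrnph2 (0.10) were not called.

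**Figure D4:**
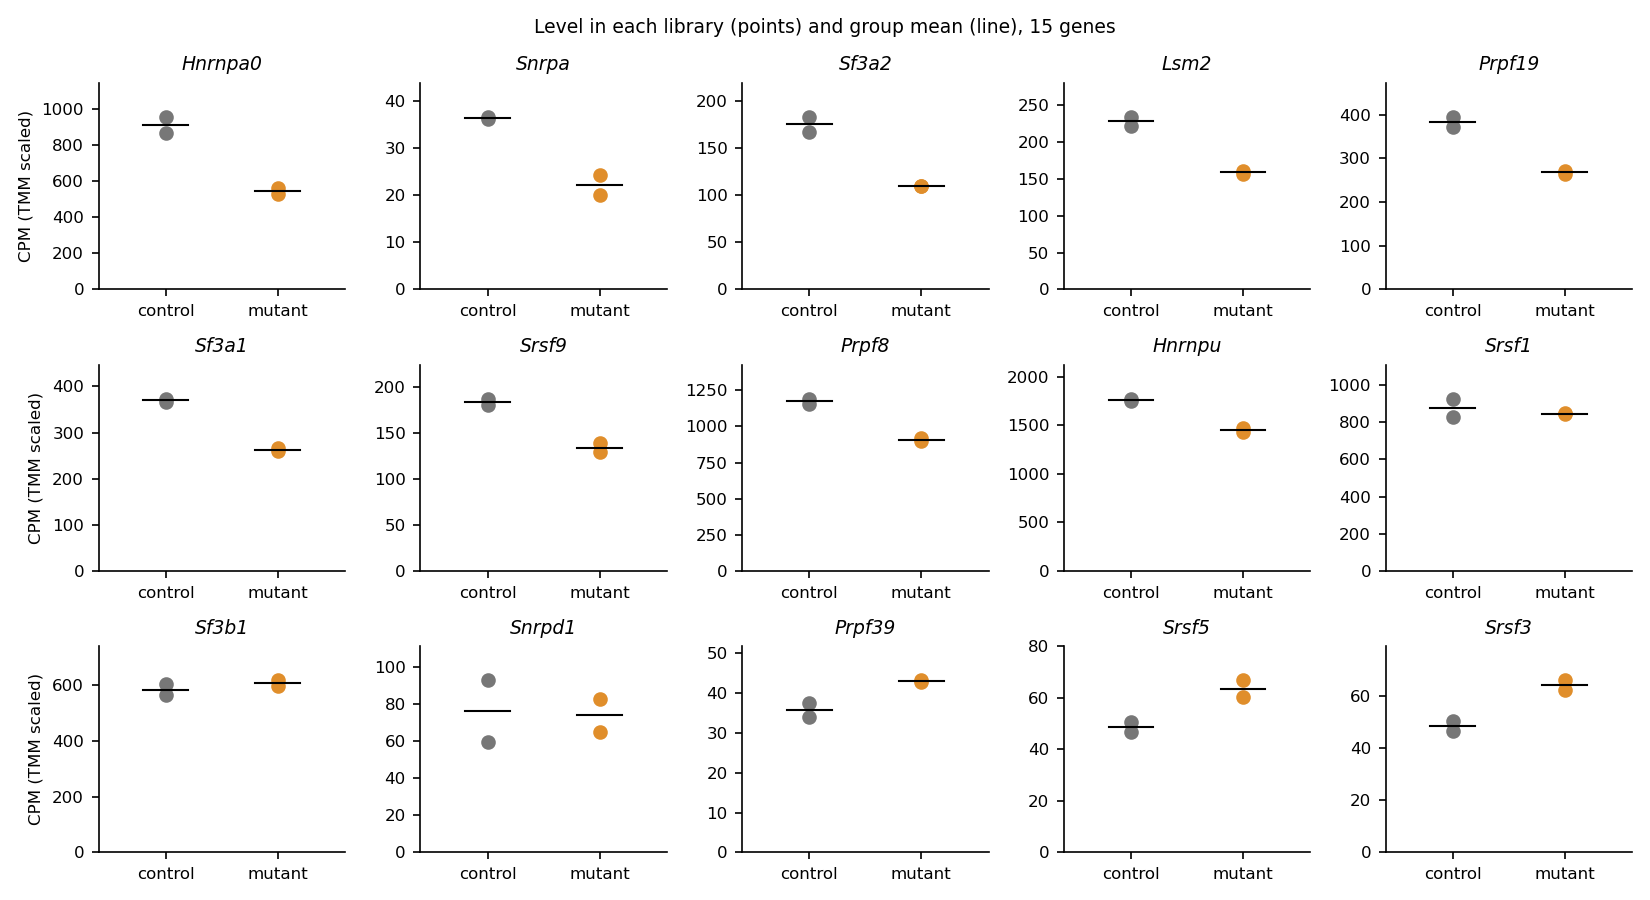
Level of 15 of the genes in each library (y axis, TMM-scaled CPM, from 0; points are libraries and lines group means, n = 2 each). Hnrnpa0, Snrpa and Sf3a2 show the widest gaps downward, Srsf3, Srsf5 and Prpf39 rise, Sf3b1 and Srsf1 overlap, and the control points of Snrpd1 lie at 92.9 and 59.7 CPM.

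Part of these genes share sequence with other annotated genes, and whether that changed their levels was not tested. How the authors counted reads that fit several places is not stated. For 14 of 72 genes with a transcript in the GENCODE annotation, over 20% of 36-base stretches also occur in another annotated gene, often a processed pseudogene. Hnrnpa1 (48.2%, 24 pseudogenes), Hnrnpf (45.4%) and Snrpa (33.1%) are examples. The median level of these 14 in controls was 18.9 CPM per kb, against 79.5 CPM per kb for the rest, a comparison of different genes. Without them 34 genes were called lower and 2 higher, so both SR risers are among those left out.

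Other spliceosome genes were described from lists. Over 8 further lists, 142 genes were tested, of which 69 were called lower and 21 higher, with a median of -0.16; with library totals 43 were lower and 42 higher, and the median was -0.03. Of the 142 genes 48.6% were lower and 14.8% higher, against 29.2% and 28.3% of all genes tested. With library totals 19.4% of all genes were lower and 38.9% higher. The lists were chosen with results of these data known. The tri-snRNP partners had a median of -0.41, with 8 of 13 lower and 0 higher. Eftud2, the U5 GTPase, went from 783 and 773 CPM to 535 and 546 CPM (-0.53 ± 0.04), and Sart1, which recruits the tri-snRNP, from 263 and 260 CPM to 179 and 186 CPM (-0.52 ± 0.05). Of 28 genes of the Prp19 complex and the catalytic step, 20 were lower and 1 higher (median -0.26). Xab2 (-0.60) and the helicase gene Dhx38 (-0.55) fell the furthest, and Cwc15 was called higher (0.23), a call lost without control replicate 2 (0.12, adjusted p = 0.191), without mutant replicate 1 (0.16, adjusted p = 0.224) and with DESeq2 (adjusted p = 0.0616).

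At the U1 snRNP and U2AF step 6 of 14 genes were lower (42.9%) and 2 higher (14.3%), beside 29.2% and 28.3% of all genes tested. The polyuridine-binding Puf60 went from 499 and 498 CPM to 335 and 345 CPM (-0.55 ± 0.04), and Snrnp70, which encodes the U1-70K protein, from 783 and 731 CPM to 522 and 538 CPM (-0.51 ± 0.04). The U1-associated Luc7l2 (0.26) and Luc7l3 (0.17) were called higher; Luc7l3 was not called without control replicate 2 (0.13, adjusted p = 0.0586) or without mutant replicate 2 (0.12, adjusted p = 0.121). U2af1 had 8.02 and 11.8 CPM in controls and 8.24 and 10.1 CPM in mutants and was not called. In the minor spliceosome list 3 of 9 genes were lower, among them Pdcd7 (-0.51) and Snrnp35 (-0.27), and 2 were higher. These are 33.3% and 22.2%, not far from the 29.2% and 28.3% of all genes tested. The call of Snrnp35 was lost under upper quartile scaling, library totals and DESeq2 and without control replicate 1 or mutant replicate 1 (adjusted p = 0.0585 and 0.162). Snrnp48 went from 26.7 and 27.5 CPM to 36.3 and 39.1 CPM (0.47 ± 0.08), while Rnpc3 (0.22, adjusted p = 0.0478) lost its call in all 4 fits that left out a library, up to adjusted p = 0.334 without control replicate 1. Zrsr2 had 24.9 and 24.4 CPM in controls and 21.6 and 24.9 CPM in mutants and was not called.

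Of 10 exon junction complex genes 6 were lower (60.0%) and 0 higher, beside 29.2% and 28.3% of all genes tested. The falls were led by the export adaptor Thoc4 (-0.42) and by Rnps1 (-0.28). In the snRNP assembly list 4 of 15 were lower and 2 higher. At 26.7% its share lower was close to the 29.2% of all genes tested, and at 13.3% its share higher was under their 28.3%. Smn1, whose product loads Sm rings onto snRNAs, went from 174 and 185 CPM to 121 and 123 CPM (-0.56 ± 0.05), and Gemin5, which recognises the snRNAs, from 456 and 460 CPM to 336 and 335 CPM (-0.45 ± 0.04). Snupn, the adaptor that carries finished snRNPs into the nucleus, moved the other way, from 22.8 and 19.9 CPM to 33.5 and 32.1 CPM (0.62 ± 0.09, adjusted p = 1.2e-05). Ddx20 (0.13, adjusted p = 0.0482) was called higher by a small margin and reached adjusted p = 0.45 without control replicate 2. Among SR protein kinases and partners 5 of 16 were lower and 5 higher, or 31.2% each, near the shares among all genes tested. Srpk2 (0.44) and Clk1 (0.25), kinases of SR proteins, rose, whereas Srpk1 was not called (-0.10), and Scaf1 (-0.60) and Scaf4 (-0.38) fell.

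The list of other regulators of alternative splicing held the single change of largest size among the 8 lists, although the median size of its changes, 0.29, was under the 0.41 of the tri-snRNP partners. Of its 37 genes tested, 17 were lower (45.9%) and 9 higher (24.3%), with a median of -0.06. Of all genes tested 29.2% were lower and 28.3% higher, so the share of rises in the list was near that of all genes. Celf2 went from 1.96 and 2.93 CPM to 10.8 and 12.3 CPM (2.24 ± 0.17, adjusted p = 1.03e-08). Rod1, also called Ptbp3, went from 201 and 242 CPM to 348 and 394 CPM (0.74 ± 0.12, adjusted p = 0.00557). Its paralog Ptbp1, the pyrimidine-tract repressor, fell from 150 and 158 CPM to 113 and 99.8 CPM (-0.53 ± 0.06, adjusted p = 1.06e-06), so the 2 paralogs were called in opposite directions. Mbnl1, which shapes splicing in late erythroid cells, went from 670 and 746 CPM to 925 and 918 CPM (0.38 ± 0.05, adjusted p = 4.85e-06). Rbm38, an erythroid splicing factor, fell from 258 and 239 CPM to 149 and 137 CPM (-0.79 ± 0.05), and Khsrp fell from 244 and 248 CPM to 155 and 158 CPM (-0.65 ± 0.05). No overlap between groups was a condition for naming Celf2, Rod1, Rbm38 and Khsrp. Ptbp1 and Mbnl1 were in the fixed set and had none either, like 77.9% of all genes tested.

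Other abundant gene families are set beside these values. Of 38 proteasome subunit genes 22 were lower and 2 higher (median -0.17), and of 55 translation initiation factor genes 29 were lower and 6 higher (median -0.16). Among 78 cytosolic ribosomal protein genes 22 were lower and 3 higher (median -0.15). Their share called lower, 28.2%, was close to the 29.2% of all genes tested, but their share called higher, 3.85%, was under 28.3%. Of proteasome genes 57.9% were lower and 5.26% higher, and of initiation factor genes 52.7% and 10.9%. With library totals alone these medians were -0.03, -0.03 and -0.02. Beside them the 73 splicing and hnRNP genes, at -0.18, had a median close to that of each of the 3 families, and no test of a difference between families was made. Within the 73 genes the class medians ran from -0.08 for the Prp factors and the U1 and U2 proteins to -0.38 for SF3a and SF3b.

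**Figure D5:**
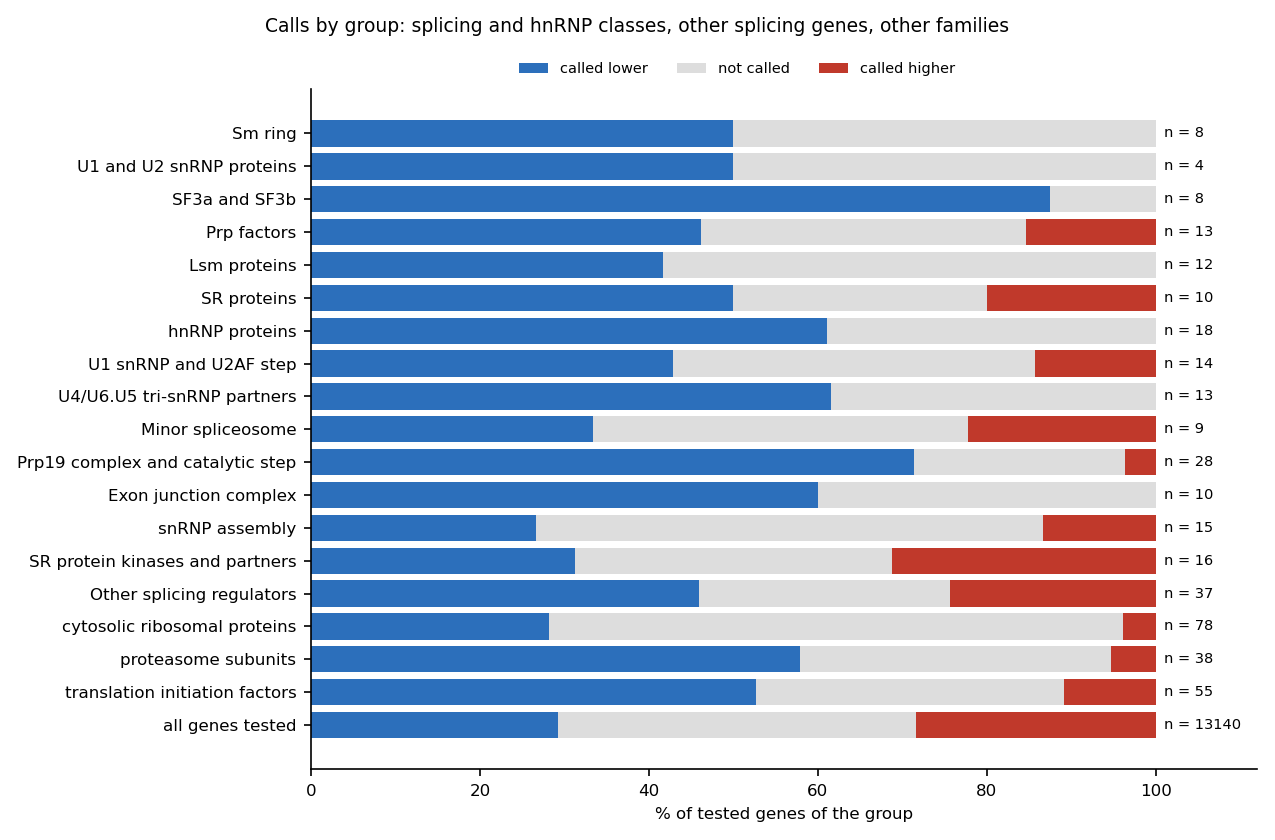
Percent of tested genes (x axis) called lower (blue), not called (grey) and called higher (red) on the TMM scale, for the 7 classes, 8 further splicing lists, 3 other families and all genes, with the number tested at the right. Blue takes 87.5% of SF3a and SF3b and 29.2% of all genes; with library totals alone fewer falls were called, 25 in place of 40 over the 73 genes.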

How the data were processed

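mRNA libraries of 2 control and 2 mutant pools were compared. The authors deposited gene counts in whole numbers, whose totals differ between libraries as raw counts do. Their own test of mutant over control was deposited as well, with a log2 fold change and a p-value for each gene, per the file headers. The submitters' processing notes name FastQC, Bowtie, edgeR and the build mm9, without versions. The counting tool, strand use and the handling of multiply mapped reads are not stated. Columns named WT were assigned to the control samples by their number, as the group besides the mutant. Of 35939 rows, 12 held NA in every library and were left out.

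The main test was the quasi-likelihood test of edgeR 4.0.16 under R 4.3.3, on TMM-scaled counts of the 13140 genes that filterByExpr kept, with robust dispersion, two-sided, at a Benjamini-Hochberg adjusted p under 0.05. Standard errors were obtained by dividing the size of the fitted change by the root of its F statistic. The fit was first run on simulated counts with the same dispersion for every gene and planted changes larger than most of those reported here. That run gives no support to the small changes called. Replicates differed beyond counting noise (chi-square per gene 5.76 between controls and 3.67 between mutants over 10006 genes), so none was treated as a duplicate. Shared 36-base stretches and coding transcript lengths came from GENCODE M21 and promoters from RefSeq GRCm38.p6; no coordinates of the mm9 counts were used. Genes were named by a rule: a fixed set of 15 members and 7 other genes, up to 4 rises and 4 falls per class and 2 per list with at least 10 CPM and no overlap of groups, and all of any count of 5 or fewer; further members were named to account for each class. For genes named only as a rise or fall, no overlap was thus a condition and not a result. Some genes that these choices take in are counted but not reported by name here. The members, classes and lists were chosen with earlier results of these data known. Alternatives were RLE, upper quartile and library-total scaling, 2 other filters, DESeq2 1.42.0, glmTreat against 1.2-fold, a fit with replicate number as block, each library left out, and, added after seeing the data, leaving out genes with shared sequence.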

Additional observations from a re-analysis of the deposited data

How the results depend on the processing

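Low spread between pooled libraries lets changes well under 1.2-fold pass, and with 2 libraries a group each call rests on a spread pooled over genes. The median of the 73 genes was -0.10 with upper quartile scaling, with 7 genes higher, and -0.04 with library totals, with 25 lower and 10 higher; against 1.2-fold 13 were lower and 1 higher, and without genes sharing over 20% of stretches 2 were higher. Among all genes 2553 were lower with library totals and 1908 beyond 1.2-fold. With library totals alone the Sm ring had 1 lower gene, the U1 and U2 proteins 1 lower and 2 higher, SF3a and SF3b 1 higher (1 also with upper quartile scaling), the Prp factors 4 higher and a median of 0.05, the Lsm proteins 3 lower and a median of 0.01, and the SR proteins 3 lower. Lower Lsm genes also numbered 3 with upper quartile scaling, with DESeq2 and beyond 1.2-fold. Beyond 1.2-fold the other classes had 1 lower gene (Sm ring), 1 lower (U1 and U2), 4 lower (SF3a and SF3b), 2 lower and 0 higher (Prp factors), 1 lower and 1 higher (SR proteins) and 1 lower (hnRNPs). The other splicing genes had a median of -0.09 with upper quartile scaling, -0.03 with library totals (42 higher, 43 lower), and 8 higher and 30 lower beyond 1.2-fold. With library totals Hnrnph1 stood at 0.02, Lsm14a at 0.02 and Sf3a3 at 0.01; Snrpd1 stood at 0.31 without control replicate 1 and at -0.33 without control replicate 2.

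With each library left out in turn, all genes called ran from 3034 to 3520 higher and 3200 to 3874 lower, and the 73 genes from 4 to 5 higher and 33 to 43 lower with medians from -0.23 to -0.18. Calls ran from 2 to 5 lower and 0 to 1 higher in the Sm ring, 5 lower and 1 to 2 higher in the Prp factors, 3 to 5 lower in the Lsm proteins, 6 to 7 lower in SF3a and SF3b, 5 to 6 lower and 2 to 3 higher in the SR proteins, and 10 to 13 lower in the hnRNPs. The other splicing genes ran from 13 to 17 higher and 55 to 71 lower, with medians from -0.18 to -0.13. The 1 higher Sm gene was Snrpd1, without control replicate 1. Leaving a library out leaves its group with 1 library, whose spread is then taken from the other group. Of the 40 falls 25, and of the 4 rises 3, kept their call under every alternative except the 1.2-fold threshold. The numbers of the libraries do not pair them by any label, and same-numbered libraries correlated at 0.119 in their deviations from group means; with the replicate number as a block (replicate block) 45 of the 73 genes were lower and 5 higher, with 4267 and 4135 among all genes. No gene had a pseudogene row under its own name, so leaving out genes with such a row changed nothing and was not run.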
